A study of Mus musculus with 8 samples.

Results

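The genes described here are 40 mouse genes of mitosis and of the spindle: cyclins and kinases of the G2/M transition, the chromosomal passenger complex, the spindle checkpoint, kinetochore proteins, mitotic kinesins, spindle assembly factors, the anaphase-promoting complex (APC/C) activity genes and the genes of the central spindle and of cytokinesis. They were taken by name from a fixed list. That list was chosen with earlier results of these data known. All 40 were on the array and were tested, out of 18778 genes tested and 36294 gene names on the array. The arrays hold 56 probes of these genes, and 12 of the genes have more than 1 probe. RNA came from a pair of mouse leukaemia lines: 70Z/3, which the labels call a pre-B lymphoblast, and '18-81', pre-B cells that Abelson murine leukaemia virus had transformed. Cells of both lines received 10 nM of a synthetic duplex by lipid transfection, either pre-miR-125b, which releases miR-125b, or the control duplex miR-Neg, with a change of medium at 8 h and RNA taken at 48 h. Each of the 4 groups has 2 arrays, 1 from each of 2 independent experiments, and the experiment was described as a search for miR-125b targets. Each line stands for itself, so a difference between the lines is one between these 2 lines.

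Cells enter mitosis when cyclin B bound to the kinase Cdk1 becomes active. Aurora and Polo kinases then drive spindle assembly, and the spindle checkpoint holds back anaphase until kinetochores are attached to microtubules. When the checkpoint is satisfied, Cdc20 turns on APC/C, which marks cyclin B and securin for degradation, and the central spindle and a contractile ring divide the cell. Most of these genes are transcribed in G2 and mitosis through CCAAT boxes, bound by NF-Y, and cell cycle genes homology regions, bound by the MuvB complex, so their RNA in a culture is known to follow the share of cells that divide. In bulk RNA, fewer cells in mitosis and less RNA per cell cannot be told apart.

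The microRNA that was added is shown first because all duplex comparisons turn on it. The mature sequence of mouse miR-125b-5p in RefSeq (GRCm38.p6) has 22 bases and its seed, bases 2 to 8, is in capitals.
mmu-miR-125b-5p: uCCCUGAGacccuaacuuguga
The letters that pair with this seed, CTCAGGG, occurred in 0 of the 56 probe sequences of the mitotic genes. Probes cover 60 bases of a transcript each, so this says nothing of the rest of the transcripts.

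The promoter windows below are shown because they carry the motifs that most of the genes share and because Top2a, Ube2c and Bub1b were among the genes that differed between the lines. Each is the 150 bases before the annotated start in RefSeq (GRCm38.p6), read 5′ to 3′ on the gene's strand, and the capitals mark CCAAT or its reverse complement ATTGG and the homology region letters TTTGAA or TTCGAA or TTCAAA. The Ccnb2 and Bub1b windows hold no homology region letters within the 150 bases printed. Both genes hold 2 matches each outside these bases, in the longer window used for the percentages below. The windows are Ccnb2 chr9:70421555-70421704, minus strand; Cdc20 chr4:118437344-118437493, minus strand; Top2a chr11:99024190-99024339, minus strand; Ube2c chr2:164769779-164769928, plus strand; and Bub1b chr2:118598061-118598210, plus strand.
Ccnb2: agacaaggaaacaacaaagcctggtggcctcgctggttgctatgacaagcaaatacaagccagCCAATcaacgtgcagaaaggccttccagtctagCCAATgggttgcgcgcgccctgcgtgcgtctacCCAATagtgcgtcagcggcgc
Cdc20: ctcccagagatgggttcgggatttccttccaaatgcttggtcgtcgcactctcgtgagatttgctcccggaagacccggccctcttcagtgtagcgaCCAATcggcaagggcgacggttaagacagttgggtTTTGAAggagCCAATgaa
Top2a: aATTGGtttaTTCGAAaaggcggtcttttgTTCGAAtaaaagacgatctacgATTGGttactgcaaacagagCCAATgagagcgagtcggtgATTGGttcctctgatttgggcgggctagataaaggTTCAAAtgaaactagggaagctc
Ube2c: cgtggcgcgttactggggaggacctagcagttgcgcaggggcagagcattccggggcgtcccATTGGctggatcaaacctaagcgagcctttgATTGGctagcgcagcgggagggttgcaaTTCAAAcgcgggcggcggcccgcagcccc
Bub1b: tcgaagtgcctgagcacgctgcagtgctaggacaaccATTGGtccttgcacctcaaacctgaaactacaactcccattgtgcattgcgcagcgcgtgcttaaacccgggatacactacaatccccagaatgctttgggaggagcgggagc
Of the 40 genes, 35 matched a promoter in the RefSeq table, whose windows run from 250 bases before to 50 bases after the start. CCAAT was found on either strand in 80.0% of these 35 genes, against 41.1% of all 27025 genes of the table and 58.2% of the 122 matched genes of a wider list of mitotic genes. TTTGAA or TTCGAA was found on either strand in 80.0%, against 21.7% of all genes and 45.9% of the wider list. Both together stood in 71.4% of the 35 genes and in 8.61% of all genes, and more than 1 CCAAT stood in 60% and 13.3%. Letters of the E2F site (TTCGCGC or TTGGCGC or TTCCCGC or TTGGCGG or TTCGCGG, either strand) were found in 17.1% of the 35 genes, 12.8% of all genes and 45.9% of the wider list. Birc5, Mad2l1, Nuf2 and Nusap1 held neither CCAAT nor the homology region letters in this window. These matches describe letters and are not sites shown to be bound.

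All 8 arrays were on 1 slide. An array detected 38.0 to 45.1% of its probes above background, and replicate 2 of 70Z/3 with miR-Neg was the dimmest, with a 75th percentile of 337.7 intensity units against 504.0 to 725.1 on the other 7 arrays. In 70Z/3 the miR-Neg array was the dimmer one in both experiments (512.8 against 701.5, and 337.7 against 504.0), so the main results of that comparison are also given without the dimmest array. Of the 40 mitotic genes, 39 were well above background on all 8 arrays and Cenpf was on 7. Of 12 pre-B markers, 10 were detected on both arrays of every group, and Rag1 and Rag2 were not detected in any group. Myeloid markers were detected on both arrays for 4, 6, 4 and 4 of 8 genes in 70Z/3 with miR-Neg and with miR-125b and in '18-81' with miR-Neg and with miR-125b, T cell markers for 5, 5, 7 and 7 of 8, erythroid for 1, 1, 2 and 2 of 5, and stromal for 2 of 5 in every group. The part of these in the results was not tested. Values below are log2 intensity minus the array's own 75th percentile of log2 intensity, and a difference of 1 on this scale is a doubling. Called means an adjusted p under 0.05 over all genes tested.

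**Figure D1:**
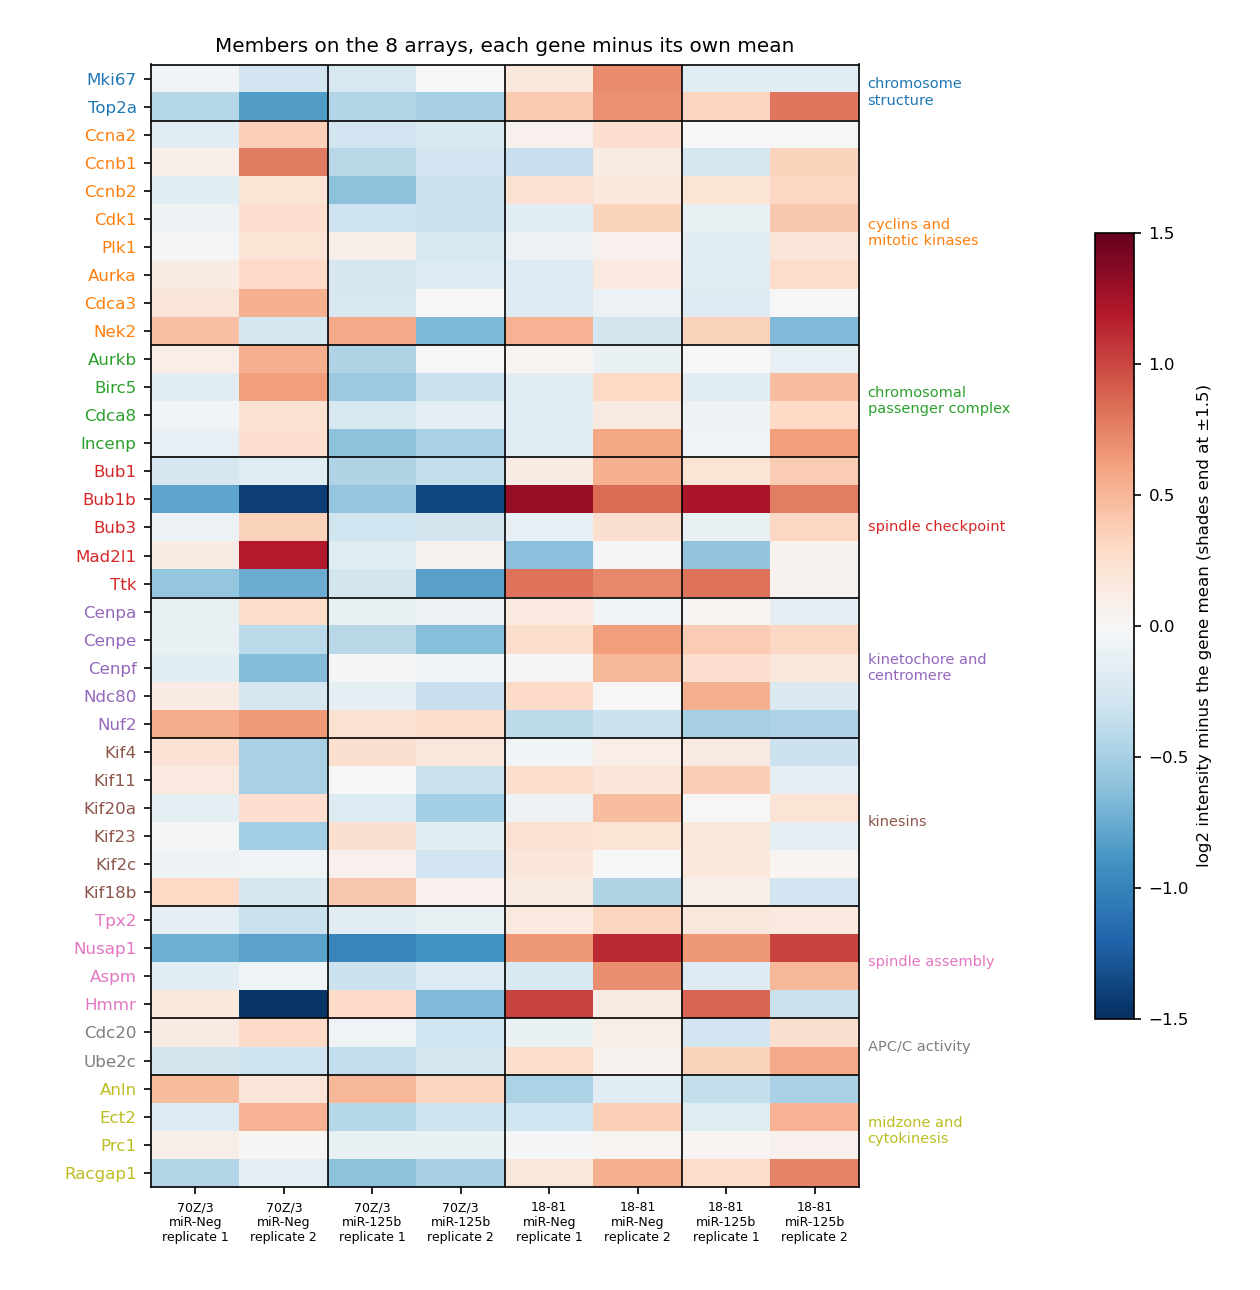
Each row is 1 of the 40 genes, grouped by role, and each column 1 of the 8 arrays; colour is the log2 intensity minus the gene's mean over the arrays, in log2 units. Bub1b, Nusap1, Ttk and Top2a are above their means on all '18-81' arrays and below them on all 70Z/3 arrays, while Hmmr and Nek2 are lower in replicate 2 of every group.

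The first question was what miR-125b did to these genes in 70Z/3. The role group of cyclins and mitotic kinases holds Ccna2, Ccnb1, Ccnb2, Cdk1, Plk1, Aurka, Nek2 and the mitotic entry factor Cdca3. The kinases Ttk and Bub1 are counted with the spindle checkpoint, and Aurkb with the passenger genes. This role group and the chromosomal passenger genes lay lower with miR-125b than with miR-Neg, by 0.78 on the log2 scale or less. Even so, 0 of the 40 genes were called in either direction. Over all genes 0 of 18778 (0%) were called higher and 0 (0%) lower. At an unadjusted p under 0.05 the count was 0 of the 40, against 524 genes (2.79%) higher and 580 (3.09%) lower over all genes. The differences of the 40 genes ran from −0.78 (Ccnb1) to 0.46 (Hmmr) with a median of −0.18, against −0.13 for all genes, which is −0.05 relative to all genes and −0.10 in each experiment taken alone. The sign of this relative median depends on the processing: it was 0.20 with no intensity filter, 0.05 with normexp background, 0.05 without replicate 1 with miR-Neg and 0.01 without replicate 2 with miR-125b, and it was −0.18 without the dimmest array or without replicate 1 with miR-125b. Without the dimmest array Hmmr turned to −0.34.

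Ccnb1, the cyclin that activates Cdk1 for entry into mitosis, read 5.26 and 5.96 with miR-Neg and 4.76 and 4.90 with miR-125b. The arrays did not overlap and the difference was −0.78 ± 0.36 (SE, n = 2 against 2; adjusted p = 0.773). Its other 2 probes differed by −0.41 ± 0.29 and −0.23 ± 0.31. Replicate 2 with miR-Neg, the dimmest array, was the highest of the 4 Ccnb1 values, and without it the difference was −0.43. Ccnb2, the second B-type cyclin, read 5.43 and 5.80 against 4.98 and 5.26, a difference of −0.50 ± 0.28 that was close in both experiments (−0.54 and −0.46; adjusted p = 0.773). Cdca3, a mitotic entry factor that triggers the loss of the Cdk1 inhibitor Wee1, read 4.89 and 5.24 against 4.46 and 4.69, a difference of −0.49 ± 0.28 (adjusted p = 0.773). In both genes the miR-Neg arrays lay above the miR-125b arrays without overlap. Cdk1 itself differed by −0.42 ± 0.32 with its brightest probe (adjusted p = 0.773). Without the dimmest array this was −0.25. Of its other 2 probes, 1 gave −0.61 ± 0.29, and the other gave −1.02 ± 0.31 (adjusted p = 0.742) but was well above background on 7 of the 8 arrays only, so its size is uncertain. Plk1, the Polo kinase of mitotic entry and spindle assembly, read 6.07 and 6.29 against 6.16 and 5.84; its difference of −0.18 ± 0.28 became −0.07 without the dimmest array and turned positive with quantile normalization (0.11), in the authors' table and with the percentile of probes above background.

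In the chromosomal passenger complex, which corrects wrong kinetochore attachments and acts in cytokinesis, all 4 genes lay lower with miR-125b, and in none did the arrays overlap. Aurkb, its kinase, read −2.78 and −2.36 with miR-Neg and −3.34 and −2.90 with miR-125b, a difference of −0.55 ± 0.30 (adjusted p = 0.773). The only Aurkb probe was well above background on all 8 arrays but was much dimmer than the brightest probes of the other passenger genes. Birc5 (survivin), its inhibitor-of-apoptosis family subunit, read 6.64 and 7.44 against 6.27 and 6.47, a difference of −0.67 ± 0.38 (adjusted p = 0.773), and its other 2 probes gave −0.55 ± 0.34 and −0.56 ± 0.72. Incenp, the scaffold subunit, and Cdca8 (borealin) differed by −0.62 ± 0.37 and −0.29 ± 0.29, without overlap in either gene. Without the dimmest array the differences were −0.34 (Aurkb), −0.27 (Birc5), −0.43 (Incenp), −0.15 (Cdca8), −0.32 (Ccnb2) and −0.31 (Cdca3). These genes were read on the same arrays, so they are not separate evidence of one another. Of the checkpoint genes, Mad2l1, which binds Cdc20 to hold back APC/C, read 5.14 and 6.20 against 4.83 and 5.07, a difference of −0.72 ± 0.43 (adjusted p = 0.773). The dimmest array was the highest of the 4, and without it Mad2l1 differed by −0.19. Bub3, a checkpoint scaffold, gave −0.42 ± 0.31, and −0.20 without that array. The checkpoint kinases Ttk and Bub1 gave 0.12 and −0.19, and 0.04 and −0.16 without that array.

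Read by role, all 8 genes of the cyclin and mitotic kinase group lay below the median of all genes. Their median relative to it was −0.29 (−0.23 and −0.35 in the 2 experiments). The 4 passenger genes also lay below it, with −0.45 (−0.36 and −0.44). Without the dimmest array these medians were −0.30 and −0.29. With quantile normalization they were −0.21 and −0.33, with 7 of 8 and 3 of 4 genes below the median of all genes, and with no intensity filter they were −0.04 and −0.20. The 6 kinesins, which move chromosomes or build the spindle and midzone, ran from −0.41 (Kif20a) to 0.34 (Kif4) with a median of 0.24 relative to all genes, which became −0.04 without the dimmest array and 0.01 without replicate 1 with miR-125b. The medians of the other role groups lay between −0.08 and 0.24 relative to all genes. Those role groups hold Mki67 (0.05 ± 0.30), the Ki-67 protein that coats mitotic chromosomes, Tpx2 (0.09 ± 0.26), which activates Aurka on the spindle, Cdc20 (−0.38 ± 0.30), the APC/C activator, Racgap1 (−0.27 ± 0.30), a subunit of centralspindlin, and Cenpa (−0.17 ± 0.27), the histone of centromeres, which turned positive under the same settings as Plk1. A second Tpx2 probe gave −0.08 ± 0.34, and the 2 Ube2c probes gave −0.02 ± 0.27 and 0.19 ± 0.27, so neither gene has a direction here. Without the dimmest array Kif20a gave −0.22, Kif4 −0.01, Mki67 −0.07, Tpx2 −0.0047, Racgap1 −0.12 and Cenpa 0.02.

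Counted by arrays that do not overlap, 22 of the 40 genes (55%) were lower with miR-125b in 70Z/3, against 22.8% of all genes, and 1 was higher (Cenpf, a kinetochore and mitotic matrix protein, 0.37 ± 0.31, well above background on 7 of 8 arrays), against 14.9%. Cenpf read lowest on the dimmest array and differed by 0.14 without it. The count of lower genes moved with the scaling: it was 14 (35%, against 19.8% of all genes) with quantile normalization, 13 (32.5%, against 18.4%) in the authors' table, 15 (37.5%, against 18%) with the percentile of probes above background, and 20 (50%, against 24.6%) with normexp. Without the dimmest array, an alternative chosen after seeing the data, which sets 1 array against 2, 25 genes lay lower (62.5%, against 31.9% of all genes) and 2 higher (5%, against 29.8%). With the replicate number as a block, 7 of the 40 genes had an unadjusted p under 0.05 with a negative difference and 0 with a positive one, against 14.5% and 6.33% of all genes, so the lower count is near the background (Ccnb1, Birc5, Mad2l1, Cdca3, Incenp, Ccnb2 and Ect2, a gene of cytokinesis), and their adjusted p-values ran from 0.205 to 0.237.

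In '18-81' the differences between the duplexes were largest for Mki67 and Ttk, both lower on average with miR-125b; the arrays overlapped for Ttk, and for Mki67 with 1 of its 2 probes. No gene was called (0 of 40 in each direction, against 0%), and 0 of the 40 had an unadjusted p under 0.05, against 0.602% of all genes higher and 0.612% lower. With the replicate number as a block, 1 of the 40 was lower (Mki67, limma unadjusted p = 0.0457) and 0 higher, against 1.11% and 1.7% of all genes. With that block set within each line, 0 of the 40 passed in either direction. The differences ran from −0.59 to 0.30 with a median of −0.02 (−0.04 relative to all genes; −0.01 and −0.07 in the 2 experiments). Arrays did not overlap for 4 genes that were lower (10%, against 5.13% of all genes) and 1 that was higher (2.5%, against 7.76%). This split moved with the scaling. With quantile normalization 2 were lower and 3 higher (5% and 7.5%, against 5.94% and 9.29% of all genes), as in the authors' table (against 6% and 9.16%). The percentile of probes above background gave 1 and 3 (2.5% and 7.5%, against 5.05% and 10.4%). Normexp gave 5 and 1 (12.5% and 2.5%, against 5.15% and 5.78%). Mki67 read 5.76 and 6.32 with miR-Neg and 5.46 and 5.45 with miR-125b, a difference of −0.59 ± 0.30 (adjusted p = 1). Its miR-Neg value of replicate 2 was the highest of the 8 arrays, and without that array the difference was −0.31. The second Mki67 probe read 5.61 and 6.10 against 5.65 and 5.50, which overlap, and gave −0.27 ± 0.30. Kif23, the centralspindlin kinesin, Ccna2, the S and G2 cyclin, and Nuf2, of the kinetochore's microtubule-binding Ndc80 complex, differed by −0.20 ± 0.31, −0.16 ± 0.29 and −0.12 ± 0.25. Ube2c, the ubiquitin-conjugating enzyme of APC/C, read 5.61 and 5.41 against 5.70 and 5.92, a difference of 0.30 ± 0.26, but its second probe gave −0.15 ± 0.27 and normexp background gave −0.15, so no direction can be given. Of the genes described first in 70Z/3, Ccnb1 gave 0.15 ± 0.36, Ccnb2 0.06 ± 0.28, Aurkb −0.03 ± 0.30, Cdca3 0.04 ± 0.28 and Mad2l1 0.06 ± 0.43. The brightest gene of each other role group gave 0.01 ± 0.28 (Plk1), 0.08 ± 0.38 (Birc5), 0.04 ± 0.31 (Bub3), −0.11 ± 0.27 (Cenpa), −0.09 ± 0.31 (Kif20a), −0.08 ± 0.26 (Tpx2), −0.01 ± 0.30 (Cdc20) and 0.15 ± 0.30 (Racgap1). Each of these is smaller than its SE.

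The difference between the effects in the 2 lines was itself tested, as '18-81' minus 70Z/3, and 0 of the 40 genes were called, as were 0 of 18778 genes (0%). At an unadjusted p under 0.05 there were 0 of the 40, against 1.89% of all genes higher and 1.34% lower. Ccnb1 had the smallest p, with 0.93 ± 0.51 (adjusted p = 0.941), followed by Mki67 with −0.64 ± 0.42 and Ccnb2 with 0.56 ± 0.39. Averaged over both lines, 0 of the 40 were called (0% of all genes) and 0 had an unadjusted p under 0.05 (against 1.45% higher and 1.25% lower), and 31 of the 40 differences were below zero, with a median of −0.11 against −0.05 for all genes. The smallest p of this average was that of Aurkb, with −0.29 ± 0.21 (adjusted p = 1).

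**Figure D2:**
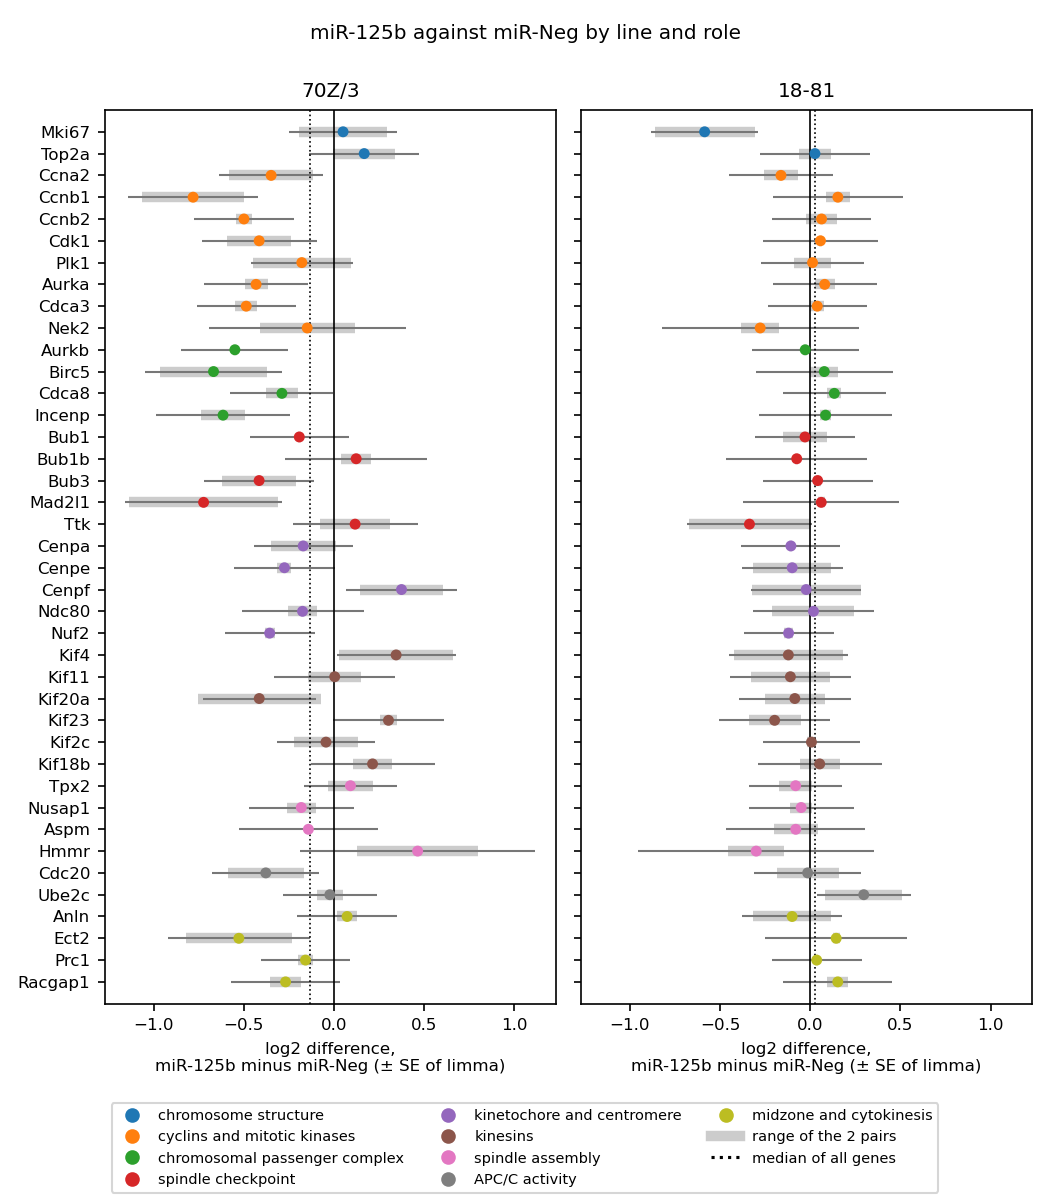
Points are the log2 differences miR-125b minus miR-Neg of the 40 genes in 70Z/3 (left) and '18-81' (right), coloured by role, with the standard error of limma as thin lines and the range of the 2 experiments as grey bars; the dotted line is the median of all genes. In 70Z/3 the genes of the cyclin and mitotic kinase group and the passenger genes lie left of zero, from −0.78 to −0.15. For Plk1, 3 other scalings gave a value above zero. In '18-81' most points lie near zero.

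One probe of Birc5 stood apart in '18-81', and its sequence is shown beside that of a second Birc5 probe because the 2 gave different values on the same arrays. Both are on the plus strand of mm9 chromosome 11, at chr11:117714057-117714116 (A_55_P1983769) and chr11:117711112-117711171 (A_55_P1983768), each 60 bases, 5′ to 3′, with no part marked. No mm9 gene models were used here to place them in exons.
A_55_P1983769: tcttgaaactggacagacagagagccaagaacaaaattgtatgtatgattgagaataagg
A_55_P1983768: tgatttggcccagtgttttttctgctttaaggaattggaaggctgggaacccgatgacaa
A_55_P1983769 read 2.17 and 3.05 with miR-Neg and 2.02 and 2.07 with miR-125b in 70Z/3, 2.52 and 2.79 with miR-Neg in '18-81', and −4.03 and −1.52 with miR-125b in '18-81'. Both low arrays are those of '18-81' with miR-125b, and the other 6 values lie between 2.02 and 3.05. The difference in '18-81' was −5.43 ± 0.72 (−6.55 and −4.31 in the 2 experiments), 43.0-fold, the largest in size of 25290 probes tested, yet with an adjusted p of 0.205 over those probes. It was −4.55 with normexp background and between −5.38 and −5.43 under 3 other scalings. The other 2 Birc5 probes gave −0.09 ± 0.34 and 0.08 ± 0.38, so the RNA they detect showed no such difference. The probe has 1 spot on each array. The standard deviation of pixel intensity was 44.7 and 66.9% of the mean on the 2 low spots, against 9.50 to 14.7% on the other 6. Mean pixel intensity was 141 and 305 on the 2 low spots, against 2272 to 4265 on the other 6. Spots of like intensity were not compared, so this percentage does not tell a faulty spot from a dim one. The scanner software did not flag any of the 8 spots as uneven, and all were well above background. The part of the spot or of the slide column, which is shared by the 2 arrays of a group, was not tested.

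**Figure D3:**
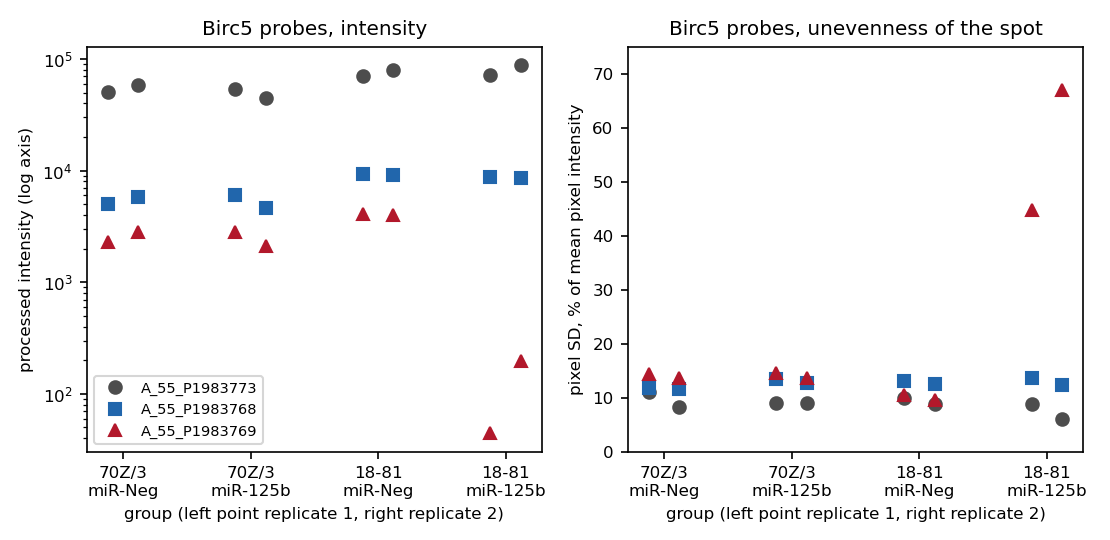
Processed intensity (left, log axis, in intensity units) and pixel standard deviation as a percentage of the mean pixel intensity (right) of the 3 Birc5 probes on the 8 arrays, with replicate 1 left and replicate 2 right in each group. A_55_P1983769 falls to 44.4 and 198 units with miR-125b in '18-81', where its spots are also the most uneven at 44.7 and 66.9%, while the other 2 probes show no such fall. Unevenness was not compared with that of other spots as dim.

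The lines were compared next, to show how these genes differ between the 2 cell backgrounds. Averaged over both duplexes, 8 of the 40 genes were called higher in '18-81' (limma, against 15.6% of all genes) and 2 lower (against 16.2%), and arrays did not overlap for 10 that were higher (against 18.5%) and 2 that were lower (against 18.2%). The count called higher is near the background share and the count called lower is under it. The genes higher in '18-81' were Bub1b, Ttk and Bub1 of the spindle checkpoint, Nusap1 and Top2a, Cenpe, Racgap1 and Ube2c, and those lower were Nuf2 and Anln. The probes lie in mm9 at chr2:118466830-118466889 (Bub1b), chr2:119475072-119475131 (Nusap1) and chr2:164598016-164598075 (Ube2c) on the plus strand and at chr11:98855522-98855581 (Top2a), chr1:171428989-171429048 (Nuf2) and chr9:22136685-22136744 (Anln) on the minus strand. The median of the 40 genes was 0.22, which is 0.21 relative to all genes (0.10, 0.18, 0.11 and 0.28 in the 4 pairs of arrays that share a duplex and an experiment).

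Of the 5 checkpoint genes, 3 were called higher (against 15.6% of all genes) and 0 lower (against 16.2%). Bub1b (BubR1), which blocks APC/C as part of the mitotic checkpoint complex, read 2.54 and 1.91 with miR-Neg and 2.74 and 1.95 with miR-125b in 70Z/3, against 4.63 and 4.16 with miR-Neg and 4.55 and 4.09 with miR-125b in '18-81'. The lines did not overlap, and the difference was 2.07 ± 0.28, 4.20-fold (n = 4 against 4, adjusted p = 0.000637), higher in 4 of 4 pairs. Ttk (Mps1), the kinase that starts checkpoint signalling, read −0.93 and −1.09 with miR-Neg and −0.62 and −1.16 with miR-125b in 70Z/3, against 0.47 and 0.38 with miR-Neg and 0.47 and −0.29 with miR-125b in '18-81'. Its difference was 1.21 ± 0.25, 2.31-fold (adjusted p = 0.00646), again without overlap. Bub1, the kinase that brings checkpoint proteins to the kinetochore, read 2.92 and 2.99 with miR-Neg and 2.72 and 2.81 with miR-125b in 70Z/3, against 3.29 and 3.71 with miR-Neg and 3.38 and 3.56 with miR-125b in '18-81'. It was 1.54-fold higher (0.62 ± 0.19, adjusted p = 0.0425), a call that was lost when any 1 of the 8 arrays was left out, with an adjusted p of up to 0.156. Bub3, the partner of Bub1 and BubR1, did not pass the test (0.16 ± 0.22, adjusted p = 0.634).

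The fifth checkpoint gene, Mad2l1, gave different answers by probe. Its brightest probe, at mm9 chr6:66490836-66490895, read 5.14 and 6.20 with miR-Neg and 4.83 and 5.07 with miR-125b in 70Z/3, against 4.38 and 4.99 with miR-Neg and 4.43 and 5.07 with miR-125b in '18-81', and the lines overlapped (−0.59 ± 0.31, adjusted p = 0.189). The probes at chr6:66490067-66490126 and chr6:66490355-66490414, on the same strand, were lower in '18-81' (−1.60 ± 0.33 and −1.83 ± 0.36; adjusted p = 0.00643 and 0.00554 over all probes), with no overlap between the lines. The first of them read 0.91 and 1.40 with miR-Neg and 1.01 and 0.46 with miR-125b in 70Z/3, and −0.16 and −1.02 with miR-Neg and −0.21 and −1.25 with miR-125b in '18-81'. All 3 probes carry the same transcript accession.

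Nusap1, a microtubule-bundling protein of the spindle, read 2.61 and 2.54 with miR-Neg and 2.35 and 2.44 with miR-125b in 70Z/3, against 3.98 and 4.46 with miR-Neg and 3.99 and 4.35 with miR-125b in '18-81'. With no overlap, its difference of 1.71 ± 0.21, 3.28-fold, had the smallest adjusted p of the 40 genes (0.000339). The other spindle assembly genes did not pass: Tpx2 gave 0.38 ± 0.18 with its brightest probe and −0.58 ± 0.24 with another, Aspm 0.38 ± 0.27, and Hmmr, a spindle pole protein, 0.84 ± 0.46. Top2a, the topoisomerase that untangles sister chromatids, read 4.13 and 3.71 with miR-Neg and 4.12 and 4.05 with miR-125b in 70Z/3, against 4.94 and 5.24 with miR-Neg and 4.88 and 5.36 with miR-125b in '18-81'. It was 2.15-fold higher in '18-81' (1.10 ± 0.22, adjusted p = 0.00526), in 4 of 4 pairs. Mki67, the other gene of chromosome structure here, gave 0.27 ± 0.21 (adjusted p = 0.377).

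At the kinetochore the called genes went in opposite directions. Cenpe, the kinesin that carries chromosomes to the spindle equator, read 4.33 and 4.04 with miR-Neg and 4.02 and 3.80 with miR-125b in 70Z/3, against 4.70 and 5.07 with miR-Neg and 4.82 and 4.75 with miR-125b in '18-81', and was 1.72-fold higher in '18-81' (0.78 ± 0.20, adjusted p = 0.0182). Nuf2 read 2.76 and 2.85 with miR-Neg and 2.43 and 2.46 with miR-125b in 70Z/3, against 1.81 and 1.88 with miR-Neg and 1.71 and 1.74 with miR-125b in '18-81', and was 1.79-fold lower in '18-81' (−0.84 ± 0.18, adjusted p = 0.0075). Both showed no overlap between the lines. Ndc80, the partner of Nuf2 in the same complex, gave 0.30 ± 0.24 (adjusted p = 0.401), Cenpf 0.45 ± 0.22 and Cenpa 0.00 ± 0.19, and none of them passed.

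Of the genes of the midzone and of cytokinesis, Racgap1 read 4.23 and 4.52 with miR-Neg and 4.05 and 4.17 with miR-125b in 70Z/3, against 4.84 and 5.20 with miR-Neg and 4.93 and 5.41 with miR-125b in '18-81', 1.80-fold higher in '18-81' (0.85 ± 0.21, adjusted p = 0.0173), and its second probe was called too (0.72 ± 0.20). Anln (anillin), the scaffold of the contractile ring, read 4.91 and 4.63 with miR-Neg and 4.93 and 4.76 with miR-125b in 70Z/3, against 3.96 and 4.27 with miR-Neg and 4.08 and 3.95 with miR-125b in '18-81', 1.67-fold lower (−0.74 ± 0.19, adjusted p = 0.0211). Neither gene overlapped between the lines. Ube2c read 5.08 and 5.04 with miR-Neg and 4.98 and 5.09 with miR-125b in 70Z/3, against 5.61 and 5.41 with miR-Neg and 5.70 and 5.92 with miR-125b in '18-81', 1.53-fold higher (0.61 ± 0.18, adjusted p = 0.0369), and its second probe gave 0.93 ± 0.19 (adjusted p = 0.00601). The call of the brighter Ube2c probe was lost without any 1 of the 8 arrays, with an adjusted p of up to 0.135, and those of Racgap1, Cenpe and Anln were lost in 4 of the 8 such fits.

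In the cyclin and mitotic kinase group (8 genes), the kinesins (6) and the passenger genes (4), no gene was called between the lines. This holds for the probe that stands for the gene. The kinases Ttk and Bub1 and the kinesin Cenpe, called above, belong to other role groups. Birc5 probe A_55_P1983769 was called lower in '18-81' (−2.39 ± 0.51, limma adjusted p = 0.00786 over all probes). Its '18-81' spots with miR-125b were the low and uneven ones described above. The other Birc5 probes gave 0.36 ± 0.24 and 0.21 ± 0.27 and were not called. Ccnb2 gave 0.45 ± 0.20 (adjusted p = 0.124), Ccnb1 −0.08 ± 0.26, Cdk1 0.23 ± 0.23, Plk1 −0.01 ± 0.20 and Aurka, the spindle pole kinase, 0.03 ± 0.20. The kinesins ran from −0.25 (Kif18b) to 0.33 (Kif11, which pushes spindle poles apart). With the replicate number as a block 12 of the 40 genes were called higher and 3 lower (against 24.4% and 23.7% of all genes); the 5 added were Ccnb2, Incenp, Tpx2, Hmmr and Mad2l1, with adjusted p-values from 0.00734 to 0.0468. Taken within one duplex, 5 genes were called under miR-Neg (Bub1b, Nusap1, Ttk and Top2a higher, Nuf2 lower; against 9.8% and 11.8% of all genes) and 4 under miR-125b (Bub1b, Nusap1, Top2a and Racgap1 higher; against 9.7% and 11.5%). The 5 genes called in all 8 fits that left out 1 array, and under all 9 other settings that use both duplexes, were Bub1b, Nusap1, Ttk, Top2a and Nuf2.

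**Figure D4:**
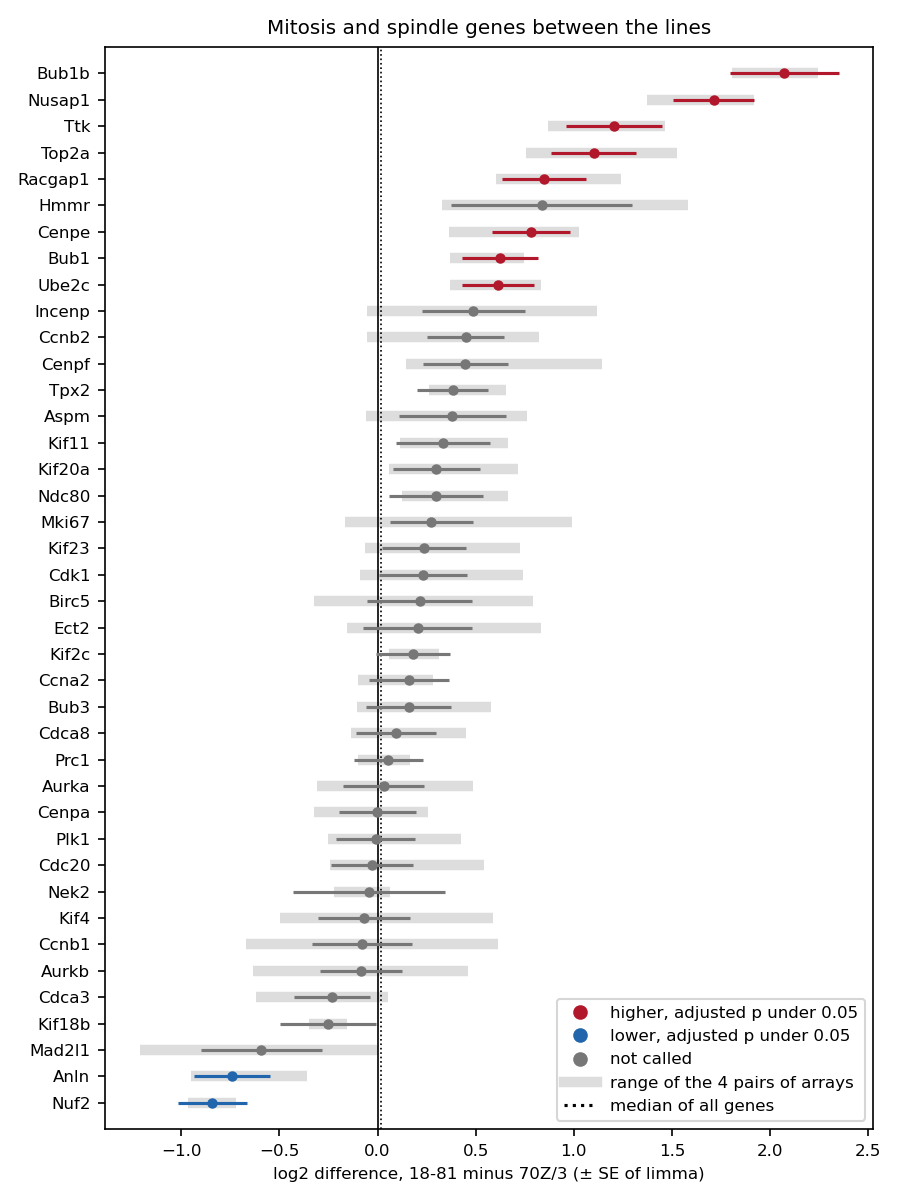
Points are the log2 differences '18-81' minus 70Z/3 of the 40 genes over both duplexes with the standard error of limma, ordered by size; grey bars show the range of the 4 pairs of arrays that share a duplex and an experiment, and the dotted line the median of all genes. Bub1b (2.07) and Nusap1 (1.71) are the farthest to the right and Nuf2 (−0.84) the farthest to the left.

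The wider list of mitotic genes, 153 genes of the same processes other than the 40, had 150 genes tested. Between the lines 22 of them were called higher in '18-81' (14.7%, against the 15.6% of all genes given above) and 6 lower (4%, against 16.2%). Their kinetochore and centromere genes, 36 in number, held 7 of the higher calls and 2 of the lower, and the 18 condensin and cohesin genes held 5 higher and 0 lower. Oip5 (Mis18 beta), which helps to load CENP-A at centromeres, was higher by 1.85 ± 0.22 (adjusted p = 0.000349), Knl1, the kinetochore platform for Bub1 and BubR1, by 1.70 ± 0.21, and Melk, a mitotic kinase, by 1.61 ± 0.22. Cenpb, which binds centromeric repeats, was not well above background with the probe used on any 70Z/3 array. Its reading in '18-81' was 213.7-fold higher than a floor set for 70Z/3. On each array that floor was the larger of the array's lowest detected signal and the measured value. This fold is not a strict lower limit, and 1 of the 4 70Z/3 arrays detected Cenpb with another probe, so its size is uncertain. Haus2, of the microtubule-branching augmin complex, was lower in '18-81' (−1.34 ± 0.24), as were Dsn1 of the Mis12 complex (−1.07 ± 0.20), Foxm1, a transcription factor of G2/M genes (−0.87 ± 0.21, adjusted p = 0.0131), and Cenpl (−1.19 ± 0.30). With the duplexes 0 of the 150 were called in either line. At an unadjusted p under 0.05 there were E2f8 (−0.66 ± 0.27) and Cdca5 (sororin, −0.72 ± 0.30) in 70Z/3 and Anapc2, an APC/C subunit, in '18-81' (−1.34 ± 0.53). These are 1.33% of the 150 genes lower in 70Z/3, against 3.09% of all genes, and 0.667% lower in '18-81', against 0.612%, so they are near or under the background. In 70Z/3 the median of the 150 genes was −0.22, which is −0.09 relative to all genes. Of their role groups, the 17 genes of APC/C and separase were the lowest, with −0.29 relative to all genes. This was −0.08 in replicate 1 and −0.35 in replicate 2, which holds the dimmest array. The other role groups lay between −0.12 (cytokinesis) and 0.06 (other spindle and kinesin genes).

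The 2 experiments were compared last, as replicate 2 minus replicate 1 within groups; the row of the slide follows the replicate number, so the 2 cannot be told apart. Of the 40 genes 3 were called higher in replicate 2 (against 19.9% of all genes) and 4 lower (against 6.05%). Their median was 0.12, against 0.21 for all genes. With quantile normalization 0 of the 40 were called higher and 4 lower, and over all genes the split was 963 higher and 1038 lower in place of 3743 and 1136, so the calls of higher genes depend on the scaling. The lower calls were Hmmr, Nek2, Bub1b and Kif18b, and these 4 stayed called under all 8 other settings that keep every array.

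Hmmr read 3.18, 3.31, 4.04 and 3.89 in replicate 1 and 1.57, 2.37, 3.15 and 2.69 in replicate 2 of 70Z/3 with miR-Neg, 70Z/3 with miR-125b, '18-81' with miR-Neg and '18-81' with miR-125b. It was lower in 4 of 4 groups, with a difference of −1.16 ± 0.16, 2.23-fold (adjusted p = 0.0265). Nek2, a kinase that separates centrosomes, gave −0.94 ± 0.14, Bub1b −0.59 ± 0.12 and Kif18b, a kinesin of astral microtubules, −0.46 ± 0.12, each lower in 4 of 4 groups. Mad2l1 (0.64 ± 0.16), Ect2 (0.55 ± 0.15) and Birc5 (0.52 ± 0.14) were called higher. The other 2 Mad2l1 probes had the opposite sign (−0.49 ± 0.27 and −0.62 ± 0.28). Of the 2 Cdca8 probes the dimmer was called lower (−0.52 ± 0.13) and the brighter was not called (0.26 ± 0.13). When 1 array is left out of this comparison, either array of a group gives the same fit. The 8 such fits are therefore not separate checks. All 7 calls were lost in 6 of the 8 fits that left out 1 array; the 2 others left out a replicate of 70Z/3 with miR-125b and called 5 of the 40 each. Of the wider list, 17 of 150 were called higher (11.3%, against 19.9% of all genes) and 13 lower (8.67%, against 6.05%), and 0 of them, as of all 18778 genes, were called in the same 6 fits, while the 2 others called 15 higher and 5 lower. The list was led by Anapc1 (0.86 ± 0.12), Haus3 (0.74 ± 0.12), Haus1 (0.70 ± 0.14) and Cks2 (0.72 ± 0.15) among the higher and Cdc25c, the phosphatase that activates Cdk1 (−1.08 ± 0.14), Cenpt (−0.91 ± 0.12), Mad1l1 (−0.77 ± 0.13) and Cep152 (−1.30 ± 0.24) among the lower.

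**Figure D5:**
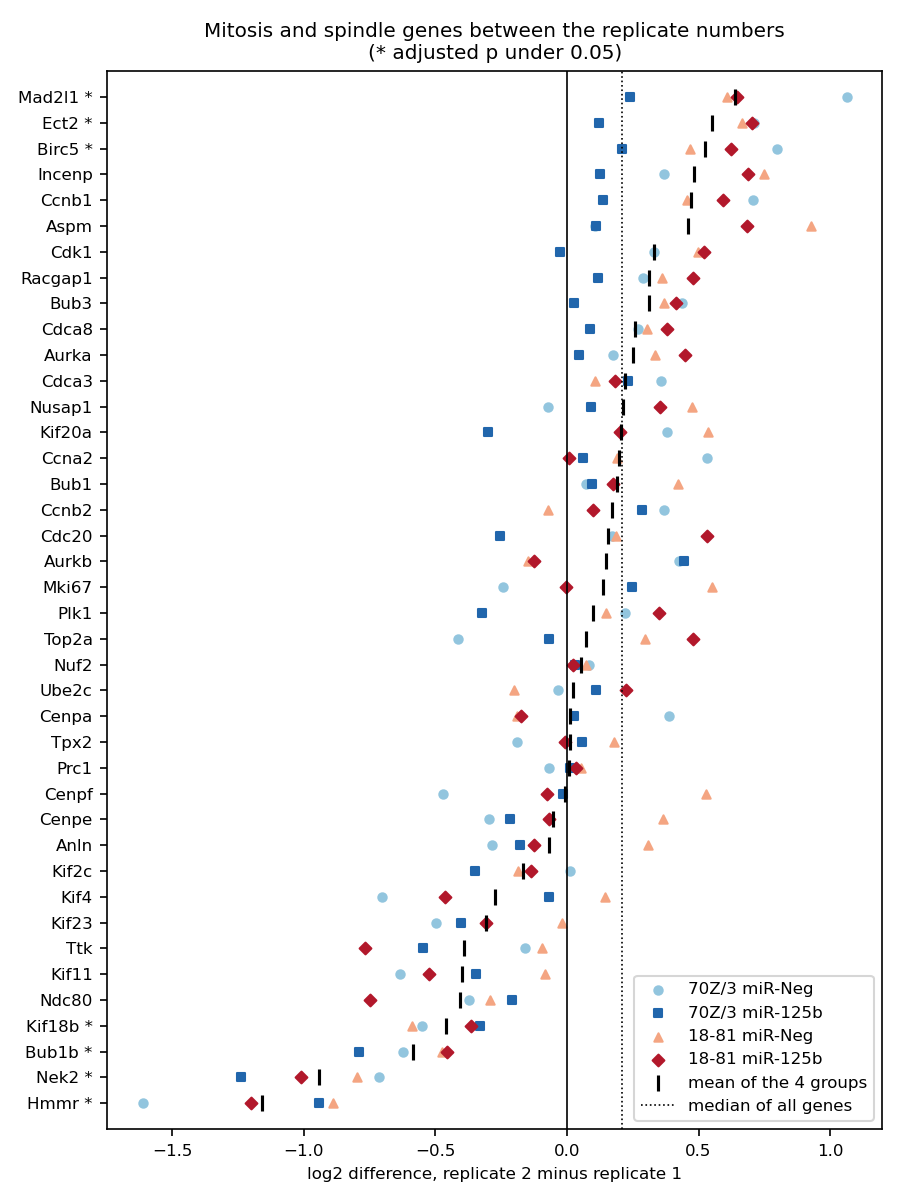
Symbols are the log2 differences replicate 2 minus replicate 1 of the 40 genes in each of the 4 groups, black ticks their mean, and the dotted line the median of all genes; stars mark an adjusted p under 0.05. Hmmr (−1.16) and Nek2 (−0.94) have the lowest means and Mad2l1 (0.64) the highest.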

How the data were processed

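RNA of the 8 samples was measured on one-colour Agilent mouse arrays. Intensity values were deposited as the scanner software wrote them (Agilent Feature Extraction 10.7.3.1, background subtracted, per the file headers), and mm9 probe positions come from the same files. Here, log2 intensity minus the array's 75th percentile was used, without control spots, outlier spots and 49 probes lacking a value on an array. Names came from RefSeq (GRCm38.p6). Genes entered if some group had a probe detected on both its arrays, and the brightest probe stood for the gene. Group means were fitted with limma 3.58.1 (R 4.3.3), Benjamini-Hochberg adjusted at 0.05 over all genes. Only the fit between the lines was tested on simulated data, in which each array varied independently. The duplex and replicate fits were not tested in this way.

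Same-numbered replicates deviated together (r from 0.37 to 0.65 over 6 pairs of groups). The numbers stand for independent experiments, but the row of the slide follows them too, so experiment and row cannot be told apart. The main fits of the duplexes and of the lines did not use this pairing, and the replicate blocks did. Named genes were those called, filled up to 6 per comparison by p among genes without overlap; the brightest of each role within a line; genes whose probes disagreed; and the top 4 per direction of the wider list. Others were picked after their values were seen. The 40 genes and the lists were chosen with earlier results of these data known. Alternatives were normexp (offset 50), quantile normalization, another percentile, the authors' deposited table of normalized intensity, other filters and probe rules, an intensity trend, replicate blocks and leaving out each array. Protein sequences were not used here.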

Additional observations from a re-analysis of the deposited data

How the results depend on the processing

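With 2 arrays a group, their number limits every value. Every alternative run called 0 of the 40 genes in the duplex comparisons. With no intensity filter, which tests more and dimmer genes, the median of the 40 relative to all genes became 0.20 in 70Z/3, 0.055 averaged over both lines and −0.18 for the difference of effects. Leaving out 1 array it ran from −0.18 to 0.048 in 70Z/3, −0.11 to −0.0037 in '18-81', −0.13 to −0.021 on average and −0.059 to 0.16 for the difference. Between the lines the 10 called became 5 (median 0.46) with no filter, 5 under miR-Neg alone, 4 under miR-125b alone and 5 to 8 without 1 array (5 without either 70Z/3 miR-125b array), with medians from 0.16 to 0.27. The replicate block raised it to 15 and changed no duplex call. Between replicates the 7 called became 11 with normexp, 4 (median −0.26) with quantile normalization, 4 (−0.26) in the authors' table and 0 to 5 without 1 array (medians −0.14 to −0.099), and the median was −0.25 with no filter. The cause of the other changes was not tested. Signs, none of them of called values except that of Mad2l1, reversed for Plk1 and Cenpa in 70Z/3 (0.11 and 0.065 with quantile normalization, 0.0070 and 0.015 with the percentile of detected probes, 0.14 and 0.083 in the authors' table). In '18-81' they reversed for Ube2c (−0.15) and Cdc20 (0.012) with normexp, Plk1 and Bub3 (−0.038 and −0.0015 with quantile normalization, −0.046 and −0.0069 in the authors' table) and Birc5 (−1.81) with the mean of its probes. Mad2l1 between replicates became −0.16 with the mean of its probes. Leaving out 1 array reversed signs, over the ranges given, for Mki67 (−0.073 to 0.17), Cenpa (−0.37 to 0.023), Tpx2 (−0.0047 to 0.19) in 70Z/3 and for Plk1 (−0.16 to 0.19), Birc5 (−0.23 to 0.39), Bub3 (−0.17 to 0.25), Racgap1 (−0.087 to 0.39), Kif20a (−0.35 to 0.18), Cdc20 (−0.28 to 0.25), Tpx2 (−0.17 to 0.0088) in '18-81'.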
